A study of Mus musculus with 12 samples.

Results

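Potassium channels let potassium leave or enter cells down its gradient and so set the resting membrane potential. In vascular smooth muscle, opening of these channels hyperpolarizes the cell, closes voltage-gated calcium channels and relaxes the vessel, and loss-of-function mutations of the human two-pore channel gene KCNK3 cause pulmonary arterial hypertension. In lung epithelium the same family provides the driving force for chloride and fluid transport, and several of its members have been placed in caveolae, the membrane invaginations that depend on cavin-1.

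The family was defined by symbol, as every probe of the Illumina MouseWG-6 v2.0 array whose annotated gene begins with Kcn followed by a letter. This rule gave 173 probes of 88 genes, out of 45281 probes and 19057 annotated genes. The 88 genes comprised 35 pore-forming or modifier subunits of voltage-gated (Kv) channels, 13 inward rectifiers, 14 two-pore channels, 8 calcium- or sodium-activated channels, 16 auxiliary subunits and 2 non-coding RNAs named after a channel gene. These classes were assigned from the gene symbol. All 88 symbols are those of the RefSeq gene table of assembly GRCm38.p6.

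RNA was from whole lungs of newborn C57/bl6 mice, 6 cavin-1-deficient (KO) and 6 wild type (WT), with 1 array per mouse. The labels give an age of up to 6 h after birth, whereas the study's methods give a wider window for the newborn mice. The KO mice are germline knockouts whose targeted allele carries a lacZ/neo cassette, and the labels give neither group any other allele or treatment. Sex, litter and BeadChip are not labelled. In whole lung, fewer cells of a type and less RNA per cell cannot be told apart.

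The targeted gene did not follow 1 label. Cavin1 probe ILMN_2498471 had a log2 signal (background-corrected and quantile-normalized bead signal) of 3.60 to 5.37 in 5 KO libraries, 11.66 in the library labelled KO 157, and 11.57 to 11.79 in the 6 WT libraries. The title of this library and its other label give different animal numbers, and each comparison was therefore also made without it. Between 45.3% and 49.1% of all probes were detected per array, detected meaning a detection p-value under 0.05. Alveolar markers were bright in both groups: the summed signal of 7 type 2 cell genes was 59685 to 76585 in KO and 60486 to 70534 in WT lungs. At an adjusted p under 0.05 (limma, Benjamini-Hochberg over all genes), 38 of 19057 genes differed between the groups.

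Newborn lung expressed a restricted set of the family. Of the 88 genes, 20 had a probe detected on all 12 arrays, 10 on 6 to 11, 24 on 1 to 5 and 34 on none. The 30 genes in the first 2 classes are called measured below, and they make up 34.1% of the family, against 60.9% of all genes. The genes with no detected probe were 38.6% of the family and 27.0% of all genes. Measured genes were 9 of 16 auxiliary subunits, 1 of 2 non-coding RNAs, 6 of 14 two-pore channels, 4 of 13 inward rectifiers, 2 of 8 calcium- and sodium-activated channels and 8 of 35 Kv subunits.

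The genes detected on all 12 arrays were Kcna2, Kcna5, Kcna6, Kcnc4, Kcnh1 and Kcnh2 among Kv subunits, Kcnj2, Kcnj8 and Kcnj15 among inward rectifiers, and Kcnk1, Kcnk2, Kcnk3, Kcnk5, Kcnk6 and Kcnk13 among two-pore channels. Kcnab2, Kcne2, Kcne4 and Kcnrg were the auxiliary genes in this class, and Kcnq1ot1, an antisense RNA from the imprinted Kcnq1 locus, was the non-coding one. Detection on 6 to 11 arrays was found for Kcnh6, Kcnq5, Kcnj3, Kcnn3, Kcnu1, Kcnab1, Kcne1l, Kcnip3, Kcnmb1 and Kcnmb4.

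Members with a probe detected on 1 to 5 arrays were Kcna1, Kcna3, Kcnd2, Kcnd3, Kcnf1, Kcng2, Kcng4, Kcnq1, Kcnq3, Kcns1, Kcns2, Kcnj4, Kcnj6, Kcnj11, Kcnj12, Kcnj14, Kcnk4, Kcnk12, Kcnma1, Kcnn4, Kcnab3, Kcne1, Kcnip1 and Kcnip4. This class holds Kcnma1, the pore of the large-conductance calcium-activated (BK) channel of smooth muscle, and Kcnn4, the intermediate-conductance channel of endothelium and epithelium. No probe was detected for Kcna4, Kcna7, Kcna10, Kcnc1, Kcnc2, Kcnd1, Kcng1, Kcng3, Kcnh3, Kcnh4, Kcnh5, Kcnh7, Kcnh8, Kcns3, Kcnv1, Kcnv2, Kcnj1, Kcnj5, Kcnj9, Kcnj16, Kcnk7, Kcnk9, Kcnk10, Kcnk15, Kcnk16, Kcnk18, Kcnn1, Kcnn2, Kcnt1, Kcnt2, Kcne3, Kcnip2, Kcnmb2 and Kcnmb4os1. A signal below detection on an array says only that it was not above that array's background.

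The number of family members detected differed by less than the spread between mice. Per library, 38 to 49 family probes were detected in KO lungs (median 42) and 37 to 47 in WT lungs (median 41). At the level of genes this was 29 to 37 in KO lungs (median 33.5) and 30 to 39 in WT lungs (median 33). Of the family's probes, 10 were detected in KO lungs only and 15 in WT lungs only. Of these, 1 KO-only and 2 WT-only probes were detected on at least 3 arrays. The same counts over all probes are not given here, so these numbers are not read as particular to the family.

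No potassium channel gene passed the test between KO and WT lungs. At an adjusted p under 0.05, 0 of 88 genes were called, against 0.199% of all genes, and 8 had an unadjusted p under 0.05, against 13.7% of all genes. Of the 8, 4 were higher in KO lungs (6.22% of all genes) and 4 were lower (7.44% of all genes). Gene values that did not overlap between 6 KO and 6 WT lungs were found for 0 members, against 1.48% of all genes. Without the library labelled KO 157, 0 members were called, against 0.115% of all genes.

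The family had no common direction. Of the 88 genes, 44 had a higher and 44 a lower mean in KO lungs, with a median log2 difference of -0.0034, while all genes had a median of -0.01. By subfamily, the median log2 difference was -0.06 for Kv subunits (15 higher, 20 lower), 0.04 for inward rectifiers (7 higher, 6 lower) and -0.08 for two-pore channels (6 higher, 8 lower). It was 0.20 for calcium- and sodium-activated channels (6 higher, 2 lower) and 0.04 for auxiliary subunits (8 higher, 8 lower). These medians include the 58 genes that were not measured.

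At the level of probes, without merging by gene, 0 of 173 family probes had an adjusted p under 0.05, against 0.148% of all probes. An unadjusted p under 0.05 was found for 23 family probes, or 13.3%, against 13.4% of all probes, and 2 had values that did not overlap between groups, or 1.16%, against 1.44% of all probes. Without the library labelled KO 157 the number of called family probes was again 0, against 0.0552% of all probes. Among the 38 measured probes, 19 were higher and 19 lower in KO lungs, with log2 differences between -0.61 and 1.53. For 24 of the 38, the 95% confidence interval lay wholly within 1 log2 unit on either side of 0.

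**Figure D1:**
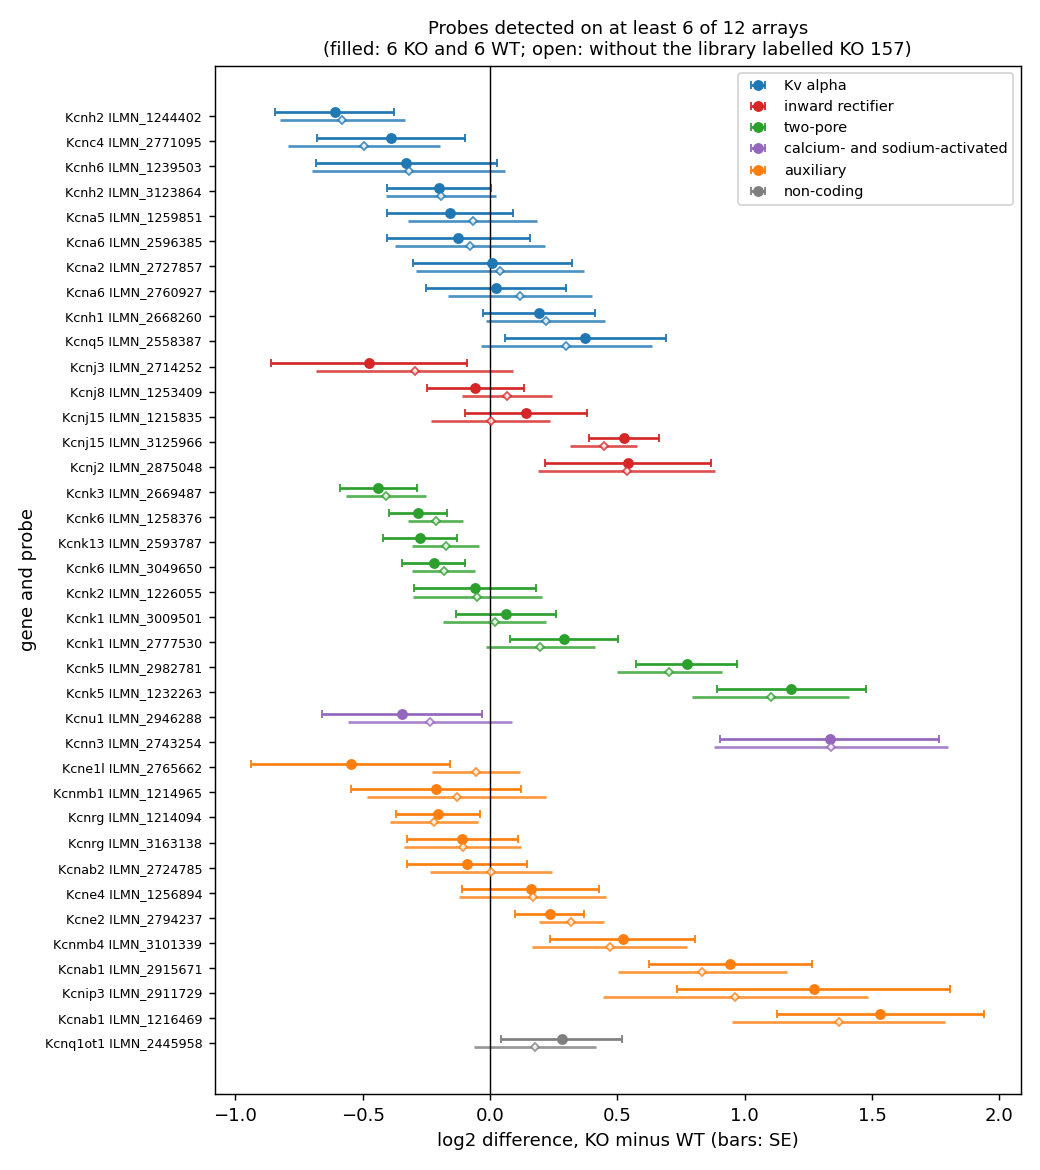
Log2 difference, KO minus WT, with its SE (x axis, limma) for the 38 family probes detected on at least 6 of 12 arrays, by gene and grouped by subfamily (colours). Filled circles use 6 KO and 6 WT libraries and open diamonds leave out the library labelled KO 157. Points lie on both sides of 0 in every subfamily with more than 1 probe, and the largest difference is 1.53 for a Kcnab1 probe.

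Kcnk5 had the smallest adjusted p of the family by gene. It encodes TASK-2, a two-pore channel opened by alkaline pH outside the cell and known from kidney and airway epithelium. The Kcnk5 probe ILMN_2982781, detected on all arrays, had a log2 signal of 8.03 to 9.33 in KO lungs (median 8.78) and 7.35 to 8.21 in WT lungs (median 8.04). In 4 of 6 KO lungs the signal lay above every WT lung, and the 2 lowest KO lungs, KO 235 and KO 237, were within the WT range. The difference was 0.77 on the log2 scale (SE 0.20, 95% interval 0.36 to 1.19), with an adjusted p of 0.0992 by limma. The library labelled KO 157, at 9.02, lay above all WT lungs for this probe.

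A second Kcnk5 probe, ILMN_1232263, had 4.52 to 5.97 in KO lungs (median 5.44) and 3.38 to 4.85 in WT lungs (median 4.25). Here 5 of 6 KO lungs were above all WT lungs, again with KO 235 as the exception, and the difference was 1.18 (SE 0.29), with an adjusted p of 0.0874 by limma. The third probe, ILMN_1249949, was above background in 1 KO and 1 WT lung and differed by -0.14 (SE 0.36). Merged by gene, Kcnk5 differed by 1.18 (SE 0.28, adjusted p = 0.0836), and by 1.10 without the library labelled KO 157 (adjusted p = 0.135). When KO 235, KO 237 and KO 238 were left out, probe ILMN_2982781 differed by 1.13 with an adjusted p of 0.0241 by limma. The KO lungs that remained were KO 186, KO 192 and the library labelled KO 157, whose Cavin1 signal was at the WT level. KO 235 and KO 237 were the lowest KO lungs on this probe, and leaving them out raises the difference by itself. In that setting 0.214% of all probes were called, against 0.148% with all libraries.

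Kcnk3 was at the opposite end among two-pore channels. This gene encodes TASK-1, the acid- and oxygen-sensitive background channel of pulmonary artery smooth muscle. Its 1 probe was at 6.82 to 7.67 in KO lungs (median 7.29) and 7.50 to 7.95 in WT lungs (median 7.80). The signal of 4 of 6 KO lungs lay below every WT lung, and 2 KO lungs overlapped the WT range. Kcnk3 differed by -0.44 (SE 0.15, 95% interval -0.75 to -0.13), a mean signal in KO lungs 0.738 times that in WT lungs. The adjusted p was 0.199, and without the library labelled KO 157 the difference was -0.41 (adjusted p = 0.299).

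The other two-pore channels lay closer to 0. Both Kcnk6 probes, for the weak inward rectifier TWIK-2, and the Kcnk13 probe, for THIK-1, are given here after their values were seen. Kcnk6 probe ILMN_1258376 had 9.02 to 9.60 in KO lungs (median 9.39) and 9.42 to 9.94 in WT lungs (median 9.66), with 4 KO lungs below every WT lung and the others within the WT range. It differed by -0.28 (SE 0.11, adjusted p = 0.281), the other Kcnk6 probe by -0.22, and the Kcnk13 probe by -0.28. Merged with probes that were not measured, Kcnk6 differed by -0.07 (SE 0.16) and Kcnk13 by 0.001 (SE 0.20). Kcnk1, encoding TWIK-1, was at 10.48 to 11.69 in KO lungs (median 10.91) and 10.05 to 11.31 in WT lungs (median 11.12) on probe ILMN_3009501, and the ranges overlapped. Merged over its 2 probes, Kcnk1 differed by 0.18 (SE 0.21, 95% interval -0.28 to 0.63), by 0.11 without the library labelled KO 157, and by -0.0036 without WT 142, its lowest library.

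Kcnk2 encodes TREK-1, a channel gated by membrane stretch and lipids. Its detected probe, ILMN_1226055, was at 6.59 to 8.20 in KO lungs (median 7.66) and 7.20 to 8.42 in WT lungs (median 7.45). KO 192 lay below the WT range and the other KO lungs within it, and the difference was -0.06 (SE 0.24). Merging with a probe at background turned the sign, to 0.06 (95% interval -0.42 to 0.55), so no direction can be given for Kcnk2.

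**Figure D2:**
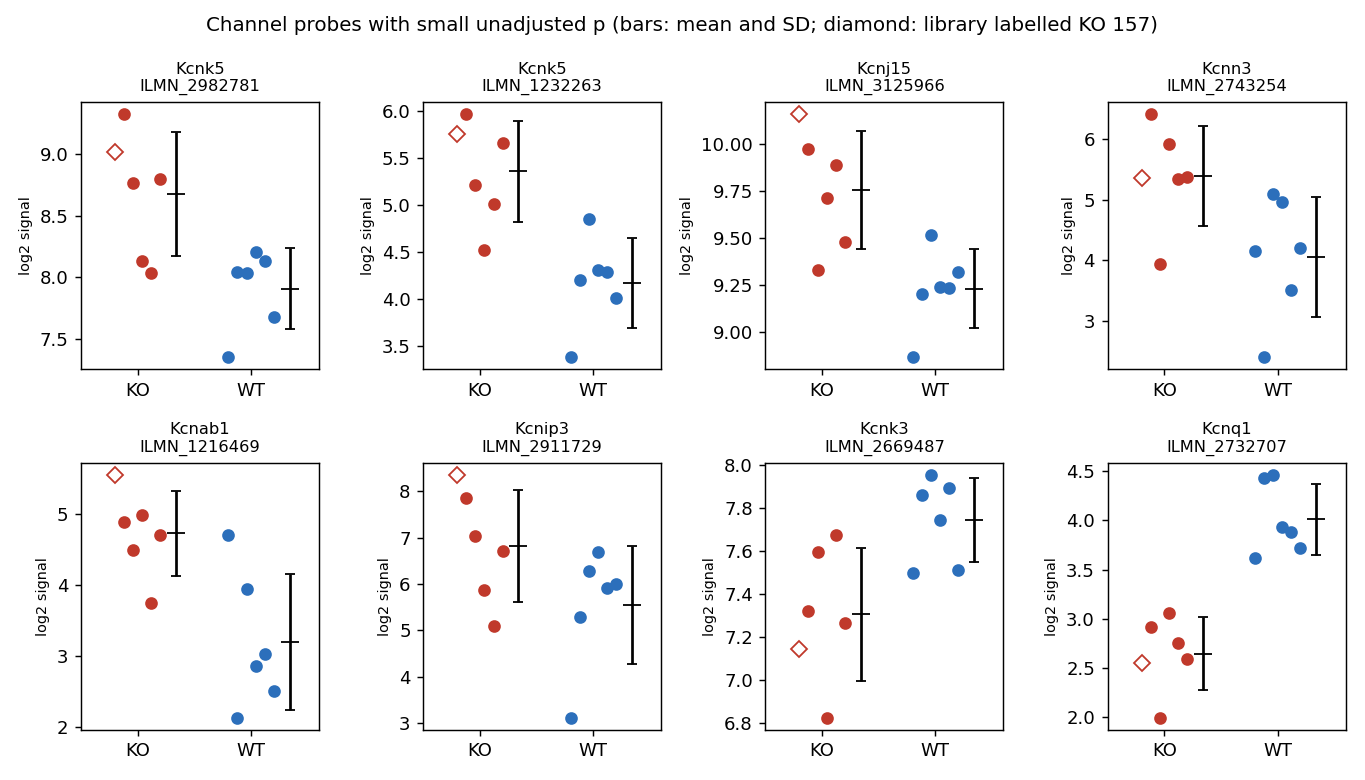
Log2 signal (y axis) of 8 family probes with an unadjusted p under 0.05 in each KO (left, red) and WT (right, blue) lung. Bars give mean and SD of 6 libraries, and the open diamond is the library labelled KO 157. The groups overlap on all probes but Kcnq1 ILMN_2732707, which was detected in 0 KO and 5 WT lungs.

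Among inward rectifiers, the measured genes included Kcnj8 and Kcnj2, known from vascular cells. Kcnj8 encodes the pore of the ATP-sensitive channel of pericytes and vascular smooth muscle, and was at 6.05 to 7.45 in KO lungs (median 6.63) and 6.38 to 6.92 in WT lungs (median 6.80). The KO lungs spread to either side of the WT range, with KO 157 lowest and KO 186 highest. The difference was -0.06 (SE 0.19, 95% interval -0.46 to 0.34), and 0.07 without the library labelled KO 157. Its sulfonylurea receptor partner Abcc9 was at 4.08 to 5.10 in KO lungs (median 4.65) and 3.75 to 4.80 in WT lungs (median 4.55), with a difference of 0.26 (SE 0.27, adjusted p = 0.724). The 7 pericyte markers, among which Abcc9 is counted, had a summed signal of 1765 to 2679 in KO and 1807 to 2324 in WT lungs.

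Kcnj2 encodes the strong inward rectifier of endothelium and striated muscle. It was at 4.26 to 6.03 in KO lungs (median 4.98) and 3.88 to 5.35 in WT lungs (median 4.53), with 2 KO lungs above all WT lungs and the rest overlapping. The difference was 0.54 (SE 0.32, 95% interval -0.13 to 1.22, adjusted p = 0.489). Skeletal muscle markers varied widely between lungs, with a summed signal over 9 genes of 838 to 16055 in KO and 675 to 27470 in WT lungs, 8 of 9 having a higher mean in KO lungs, 0 called, 4 with an unadjusted p under 0.05, and Myod1 undetected. Endothelial markers had a higher mean in KO lungs for 6 of 8 genes, 0 called and 4 with an unadjusted p under 0.05, with summed signals of 13190 to 18677 in KO and 12049 to 15911 in WT lungs. Their part in the Kcnj2 values was not tested.

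Kcnj15 is described after its values were seen, since its probes disagreed. It encodes an inward rectifier of kidney and other epithelia. Probe ILMN_3125966 was at 9.33 to 10.16 in KO lungs (median 9.80) and 8.87 to 9.52 in WT lungs (median 9.24), so 4 of 6 KO lungs lay above every WT lung. The difference was 0.53 (SE 0.14, 95% interval 0.24 to 0.81, adjusted p = 0.0997), and 0.45 without the library labelled KO 157 (adjusted p = 0.167). Without KO 192, the lowest KO lung on this probe, it was 0.61 with an adjusted p of 0.0279. Leaving out the lowest KO lung raises the difference by itself, and 1.28% of all probes were then called, against 0.148% with all libraries. The other detected Kcnj15 probe, ILMN_1215835, overlapped between groups and differed by 0.14 (SE 0.24). Merged over 5 probes, of which 2 were measured, Kcnj15 differed by -0.16.

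Kcnj11 and Kcnj14 were near background and are named here after their values were seen, for an unadjusted p under 0.05. Kcnj11, the pore of the ATP-sensitive channel of pancreatic beta cells and striated muscle, was detected in 0 KO and 3 WT lungs. Its log2 signal was 1.71 to 3.55 in KO lungs (median 2.37) and 2.05 to 3.98 in WT lungs (median 3.65), which overlap. No fold can be given for it (adjusted p = 0.265). For Kcnj14, probe ILMN_2680891 was at 2.87 to 3.89 in KO lungs (median 3.40) and 2.15 to 2.71 in WT lungs (median 2.29). All 6 KO lungs were above all WT lungs on this probe. It was above background in 2 KO and 0 WT lungs, so again no fold can be given (adjusted p = 0.329 for the merged gene).

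Among Kv channels, Kcna5 and Kcnc4 showed no difference beyond the spread between mice. Kcna5, the oxygen-sensitive Kv channel of pulmonary artery smooth muscle, was at 4.94 to 6.32 in KO lungs (median 5.51) and 5.001 to 6.06 in WT lungs (median 5.76). The ranges overlapped almost wholly, and the difference was -0.16 (SE 0.24, 95% interval -0.67 to 0.35, adjusted p = 0.831), and -0.07 without the library labelled KO 157. The interval with all libraries does not reach a change of 1 log2 unit in either direction. Kcnc4, a fast-inactivating Kv channel, was at 7.40 to 8.73 in KO lungs (median 8.10) and 7.89 to 9.86 in WT lungs (median 8.24) on its detected probe. The values of 3 KO lungs lay below the WT range, and the difference was -0.39 (SE 0.29) on this probe and -0.22 (SE 0.21, adjusted p = 0.694) for the gene. Without WT 142 the Kcnc4 probe differed by -0.11.

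Merged by gene, the ether-a-go-go-related channels Kcnh2 and Kcnh6 both had an unadjusted p under 0.05 with lower means in KO lungs. Kcnh2 encodes the delayed rectifier that repolarizes cardiac muscle. On probe ILMN_1244402 it was at 5.15 to 6.46 in KO lungs (median 5.29) and 5.77 to 6.44 in WT lungs (median 6.23). The values of 4 KO lungs lay below all WT lungs and those of 1 above. The difference was -0.61 (SE 0.23, adjusted p = 0.258) on this probe, -0.20 (SE 0.20) on the second detected probe, and -0.55 (adjusted p = 0.329) after merging. Cardiomyocyte markers had a summed signal of 667 to 18594 in KO and 3490 to 15400 in WT lungs, with 0 of 8 called and 0 at an unadjusted p under 0.05, and their part in the Kcnh2 values was not tested. Kcnh6, a related channel, differed by -0.86 after merging (SE 0.30, adjusted p = 0.211). The merged signal had a mean of 2.25 in KO and 3.11 in WT lungs. Both means lay below the lowest detected signal of each array, 3.55 to 3.95, so this is a difference near background. Of the 3 Kcnh6 probes only 1 was measured. This probe was at 3.71 to 5.16 in KO lungs (median 4.10) and 3.28 to 5.61 in WT lungs (median 4.50), and differed by -0.33 (SE 0.36).

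Kcnq1 had the lowest p of any family probe. The gene encodes a Kv channel of cardiac muscle and of secretory epithelia, where it runs together with Kcne subunits. Probe ILMN_2732707 was at 1.99 to 3.06 in KO lungs (median 2.67) and 3.62 to 4.46 in WT lungs (median 3.91). All 6 KO lungs, the library labelled KO 157 included, lay below all 6 WT lungs, and the probe was detected in 0 KO and 5 WT lungs. The fitted difference was -1.37 (SE 0.29, 95% interval -1.96 to -0.77, adjusted p = 0.0590), and -1.35 without that library (adjusted p = 0.102). Since no KO lung was above background, only a bound on the fold is given. With KO values raised to the lowest detected signal of each KO array, the KO mean was 1.25-fold lower than the WT mean. This bound has no interval, and the difference did not pass the test.

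The other Kcnq1 probe, ILMN_1237984, was at background in nearly all lungs. It was at 1.86 to 3.78 in KO lungs (median 3.06) and 1.66 to 2.88 in WT lungs (median 2.75), with 1 KO and 0 WT lungs detected. Merged over both probes, Kcnq1 differed by -0.41 (SE 0.24, adjusted p = 0.480). Taking the brightest probe per gene gave an adjusted p of 0.0366, and taking only probes detected on at least 3 arrays gave 0.0402. These settings called 0.283% and 0.435% of all genes tested, against 0.199% in the main fit. Kcnq1ot1, the antisense RNA of the locus, was at 5.10 to 6.08 in KO lungs (median 5.51) and 4.93 to 5.99 in WT lungs (median 5.17), which overlap, and its probe ILMN_2445958 differed by 0.28 (SE 0.24).

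Of the 8 calcium- and sodium-activated channels, 2 were measured, Kcnn3 and Kcnu1. Kcnma1 was detected in 2 KO and 0 WT lungs on 1 of 3 probes, ILMN_1256814, with 2.62 to 3.97 in KO lungs (median 2.99) and 1.73 to 3.11 in WT lungs (median 2.75). The groups overlapped (adjusted p = 0.778 for the gene), and with no WT lung above background no fold is given. Kcnn4, above background in 2 KO and 0 WT lungs, was at 1.82 to 3.996 in KO lungs (median 3.40) and 2.21 to 2.96 in WT lungs (median 2.71). These ranges overlapped (adjusted p = 0.580), and no fold is given here either. Kcnu1, known as a channel of sperm, was placed in this class by its symbol alone. It was at 3.03 to 4.41 in KO lungs (median 3.84) and 3.57 to 4.68 in WT lungs (median 4.11), which overlap, and differed by -0.35 (SE 0.28).

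Kcnn3 encodes a small-conductance channel that hyperpolarizes endothelium. Probe ILMN_2743254 was detected in 6 KO and 4 WT lungs, with 3.94 to 6.41 in KO lungs (median 5.37) and 2.41 to 5.09 in WT lungs (median 4.18). The values of 5 of 6 KO lungs lay above all WT lungs, and KO 192 lay within the WT range. The difference was 1.33 (SE 0.43, adjusted p = 0.176), and 1.34 without the library labelled KO 157 (adjusted p = 0.243). Without KO 192 it was 1.62, with an adjusted p of 0.0482. KO 192 was the lowest KO lung on this probe, and leaving it out raises the difference by itself. In that setting 1.28% of all probes were called, against 0.148% with all libraries. The other Kcnn3 probe was detected on no array, and the merged gene differed by 0.60 (SE 0.31, adjusted p = 0.415).

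**Figure D3:**
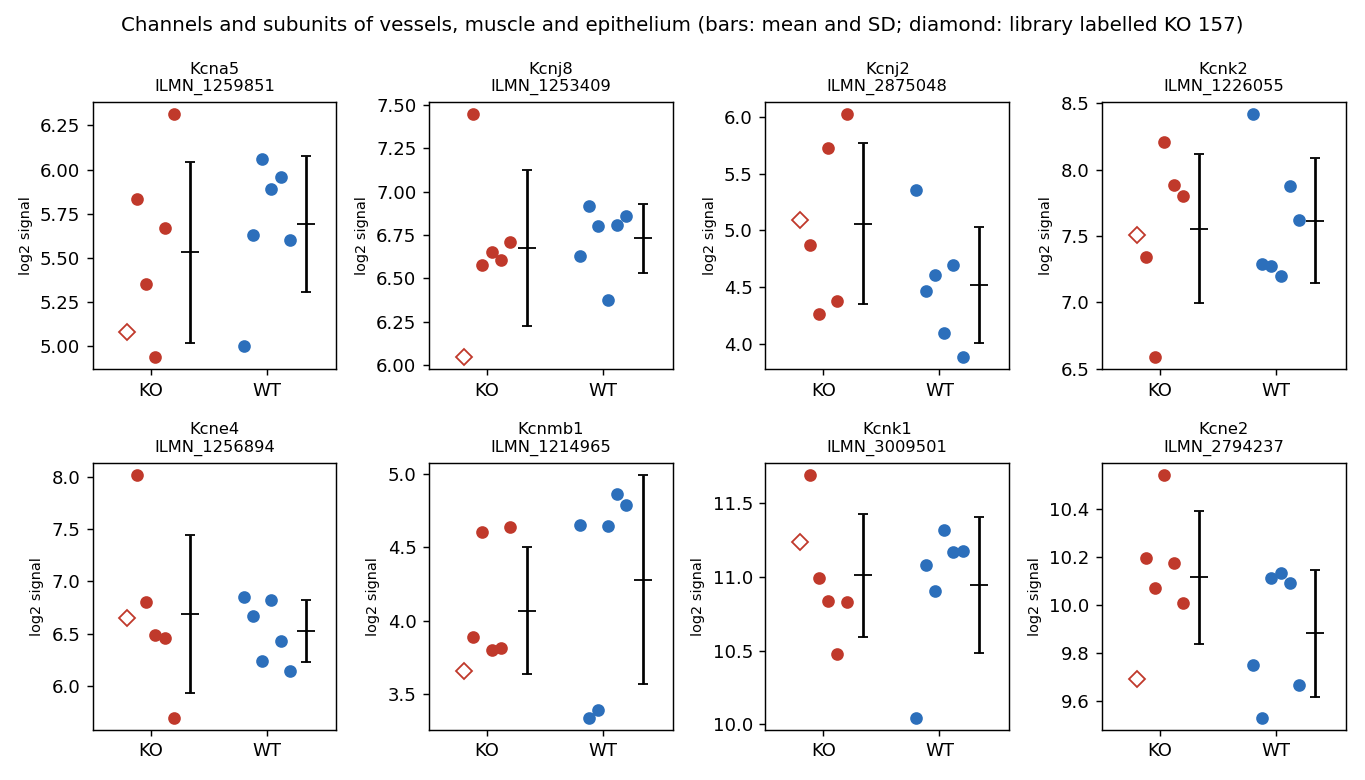
Log2 signal (y axis) of 8 probes for channels and auxiliary subunits of vessels, muscle and epithelium in each KO (left, red) and WT (right, blue) lung, with mean and SD of 6 libraries. The open diamond is the library labelled KO 157. The groups overlap on all 8 probes, and Kcna5, Kcnj8 and Kcnmb1 have differences of -0.16, -0.06 and -0.21.

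The largest difference among the 38 measured probes was in an auxiliary subunit. Kcnab1 encodes a cytoplasmic Kv beta subunit that speeds inactivation. Probe ILMN_1216469 was at 3.75 to 5.56 in KO lungs (median 4.80) and 2.14 to 4.71 in WT lungs (median 2.95), detected in 5 KO and 2 WT lungs. In 4 of 6 KO lungs it was above every WT lung; WT 142 was the high WT lung. The difference was 1.53 (SE 0.41, adjusted p = 0.101), and 1.37 without the library labelled KO 157 (adjusted p = 0.182). The other measured Kcnab1 probe, ILMN_2915671, differed by 0.94 (SE 0.32, adjusted p = 0.194), and the 5 probes merged by 0.83 (SE 0.26, adjusted p = 0.171).

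Kcnip3 encodes a calcium-binding protein that interacts with Kv channels of the Kcnd group and also acts as a transcriptional repressor. It was at 5.09 to 8.36 in KO lungs (median 6.87) and 3.12 to 6.68 in WT lungs (median 5.95). The values of 4 KO lungs lay above all WT lungs, KO 157 was highest, and WT 142 was far below the other WT lungs. The difference was 1.27 (SE 0.58, adjusted p = 0.346), and 0.96 without the library labelled KO 157.

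Kcne subunits modify Kv channels from within the membrane. Kcne2 was at 9.69 to 10.54 in KO lungs (median 10.12) and 9.53 to 10.14 in WT lungs (median 9.92), with 3 KO lungs above the WT range, and differed by 0.23 (SE 0.14, 95% interval -0.06 to 0.53). Kcne4 was at 5.70 to 8.02 in KO lungs (median 6.57) and 6.15 to 6.85 in WT lungs (median 6.55), and differed by 0.16 (SE 0.28). KO 186 was above and KO 238 below the WT range for Kcne4. The high value was that of KO 186, and without this lung the difference was -0.11. Kcne1l was at 3.70 to 6.92 in KO lungs (median 6.64) and 6.35 to 7.08 in WT lungs (median 6.58). The library labelled KO 157 alone was low: the difference of -0.55 (SE 0.42) became -0.05 without it.

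Kcnmb1, the beta subunit that raises the calcium sensitivity of the BK channel in smooth muscle, was detected in 4 KO and 4 WT lungs. It was at 3.66 to 4.64 in KO lungs (median 3.85) and 3.34 to 4.87 in WT lungs (median 4.65), and the ranges overlapped. The difference was -0.21 (SE 0.31, 95% interval -0.88 to 0.46, adjusted p = 0.825), and -0.13 without the library labelled KO 157. The means of all 10 smooth muscle markers were lower in KO lungs, 0 of 10 called and 1 with an unadjusted p under 0.05. Their median log2 difference was -0.36, and -0.25 without the library labelled KO 157. Without that library Mylk alone turned, from -0.02 to 0.06. Cnn1 was detected in 0 KO and 1 WT lungs, so its direction is near background. The summed signal of the 10 markers was 3365 to 10650 in KO and 6294 to 12950.5 in WT lungs, with no marker undetected on all arrays. The part of these markers in the Kcnmb1, Kcna5 and Kcnk3 values was not tested.

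On the measured probes of the remaining members, log2 differences lay between -0.48 and 0.52, and none had an unadjusted p under 0.05. Kcna2 probe ILMN_2727857 differed by 0.01 (SE 0.31). The signal was 5.76 to 6.35 in KO lungs and 6.07 to 6.62 in all WT lungs but WT 142, which was at 4.22, and without WT 142 the difference was -0.35. Among the other Kv subunits, the 2 Kcna6 probes differed by -0.13 and 0.02, and the measured Kcnh1 probe by 0.19 (SE 0.22). The measured probe of Kcnq5, a Kv channel of vascular smooth muscle, differed by 0.37 (SE 0.32). Merged with probes that were not measured, Kcnq5 differed by -0.07 (SE 0.27). Kcnj3, a G protein-gated inward rectifier known from atrial muscle and neurons, had a probe above background in 2 KO and 4 WT lungs, with a difference of -0.48 (SE 0.38). Kcnab2, the second Kv beta gene measured, differed by -0.09 (SE 0.24), and by 0.005 without the library labelled KO 157, so it has no direction. Kcnrg, which interferes with Kv channel assembly, differed by -0.20 and -0.11 on its 2 probes, and by -0.05 and 0.11 without KO 192, the low KO lung on both. The measured probe of Kcnmb4, the BK beta subunit best known from brain, was above background in 6 KO and 3 WT lungs, with a difference of 0.52 (SE 0.28), while its other probe differed by -0.33. KO and WT values overlapped on each of these probes.

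Genes that work with potassium channels were read from lists chosen with earlier results known. Of 8 partner subunits outside the family, 0 were called by limma, 5 having a higher and 3 a lower mean in KO lungs, and 1 had an unadjusted p under 0.05. Of these 8, Dpp10, Lrrc38 and Lrrc55 were detected on no array, and their direction has no meaning. Lrrc26, the BK gamma subunit of secretory epithelium, was at 8.44 to 9.46 in KO lungs (median 9.04) and 8.34 to 8.96 in WT lungs (median 8.72), and differed by 0.37 (SE 0.16, adjusted p = 0.321). Pacemaker channels gave 0 called of 3 analysed and 0 with an unadjusted p under 0.05, and were near background, with Hcn4 detected on no array and Hcn2 in 0 KO and 1 WT lungs. Of 15 genes of calcium entry, calcium release and the calcium-activated chloride channel, 0 were called and 0 had an unadjusted p under 0.05, 8 having a higher and 7 a lower mean. Cacna1c, the pore of the smooth muscle calcium channel, was detected in 1 KO and 1 WT lung and differed by 0.24 (SE 0.18). The sodium pump builds the gradient that the channels use, and 0 of its 4 analysed subunits were called, 1 having an unadjusted p under 0.05. Atp1b3 was at 12.55 to 12.81 in KO lungs (median 12.67) and 12.81 to 12.96 in WT lungs (median 12.87), and differed by -0.20 (SE 0.07, adjusted p = 0.228).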

How the data were processed

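The authors deposited an intensity for each probe (a bead average written by GenomeStudio, neither background-subtracted nor normalized) and, for each, a detection p-value of that software. A second deposited table held the authors' processed intensity on a linear scale, with array medians of 11.1 and a lowest value of -17.5, and was used only as an alternative, with values under 16 set to 16. Here the bead signals were background-corrected with the normal-exponential model that RMA uses, then quantile-normalized and log2-transformed, as the study's methods describe in outline. Probes were named from the platform annotation: 34885 had 1 gene, 18 had several and 10378 had none. A gene was given the median of its probes, and no filter on dim probes was set. KO and WT were compared with limma 3.58.1 in R 4.3.3, with a mean-variance trend, two-sided, with Benjamini-Hochberg adjustment over all genes or probes. limma replaced the SAM test of the methods, whose settings are not given in the sources used here. Values in sentences without a probe ID are those of the merged gene, and SE is that of the limma fit. Figures were drawn with matplotlib 3.10.9.

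A measured gene or probe was detected, at a detection p under 0.05, on at least 6 of 12 arrays. The number of arrays limits the precision. Named genes were the 12 measured members with the smallest p and 13 analysed members listed by their role in lung vessels and epithelium, 21 in all, and others are marked as chosen after their values were seen. The members and lists were chosen with earlier results of these data known. P-values set the difference between group means against the spread between these mice, with a variance that limma moderates across all genes. Of 19057 genes, 1 was called by limma without the trend and 0 by Student's t-test with the same adjustment. The methods give that t-test for the study in general and SAM for the arrays, and SAM was not run here. The code was tested on simulated data. Alternatives were other background corrections, normalization, filters, merging rules, tests, array weights, a Y-linked covariate and leaving out libraries. Neither litter nor BeadChip could be modelled from the labels. Probe sequences were not used here.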

Additional observations from a re-analysis of the deposited data

Results flagged for a closer look

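Of 122 groups of 6 libraries checked, which covered 33 genes (measured or named), 27 probes of those with several probes and the number of detected probes, 10 held a library far from the others, and chance marks about 1 in 20 groups. Several of the 10 are the same library on a gene and on its probes. The library labelled KO 157 was at 3.70 for Kcne1l, against 6.32 to 6.92 in the other KO lungs, and at 4.45 for the merged Kcnq1ot1, against 3.81 to 4.04. KO 192 was low for Kcnrg: 7.07 for the gene against 8.03 to 8.29 in the other KO lungs, 7.97 against 8.79 to 8.99 on probe ILMN_1214094, and 6.17 against 7.24 to 7.79 on probe ILMN_3163138. For Kcnk2 the merged value was 5.52 in KO 235, against 4.65 to 4.96 in the other KO lungs, and for Kcnk6 it was 6.04 in KO 238, against 5.23 to 5.41. The WT lung 142 was at 4.22 for Kcna2, against 6.07 to 6.62 in the other WT lungs. It was also at 9.22 for Kcnk1, against 10.08 to 10.58, and at 10.05 on its probe ILMN_3009501, against 10.90 to 11.31.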

How the results depend on the processing

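Of 27 other settings of the gene-level fit, 25 called no family member, and of 24 settings of the probe-level fit, 20 called none. With the t-test of the methods, or without KO 238, WT 179, WT 182 or WT 187, 0 of 19057 genes were called. No member could therefore be called by gene in those settings. By probe, 0 of all probes were called with the authors' processed values, limma without a trend or that t-test. The same held without KO 238 or WT 179, so no family probe could be called in these settings. By gene, 1 member was called, Kcnq1 with a lower signal in KO lungs, both with only probes detected on at least 3 arrays and with the brightest probe per gene. These settings called 0.435% and 0.283% of all genes tested, against 0.199% in the main fit. By probe, 1 member was called with the same filter and with array weights, in both cases Kcnq1 ILMN_2732707, and 1 without KO 235, KO 237 and KO 238, Kcnk5 ILMN_2982781. In that order, these settings called 0.551%, 0.510% and 0.214% of all probes tested, against 0.148% in the main fit. The last of these settings keeps the library labelled KO 157 among its KO lungs. Leaving out 1 library at a time gave 0 to 4 called probes; the 4, without KO 192, were Kcnj15 ILMN_3125966, Kcnn3 ILMN_2743254, Kcnq1 ILMN_2732707 and Kcnt1 ILMN_2479273, which was detected on no array, while 1.28% of all probes were called there. The cause was not tested. A detection p under 0.01 gave a median of 32 detected family probes per library, against 41 at 0.05.

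Of 32 results for named genes and probes, 28 never changed sign in the settings tried, Kcnh6 and Kcnma1 among them being 0 with the authors' processed values. Kcnk2 turned to -0.0018 without background correction, -0.0075 with neqc, -0.029 with the authors' processed values, -0.041 without KO 235, KO 237 and KO 238, and -0.059 with both detection filters, the brightest probe and the median of detected probes. Kcnj8 turned to 0.0019 with array weights. With 1 library left out, the log2 difference lay between -0.053 and 0.19 for Kcnk2, -0.21 and 0.067 for Kcnj8, -0.11 and 0.36 for Kcne4, and -0.0036 and 0.29 for Kcnk1. Of the 38 measured probes, 10 changed sign when some library was left out, 2 of them (Kcnj8 and Kcnab2) without the library labelled KO 157. No paired analysis was possible because KO and WT animals share no number in the labels. The study describes its array mice as pairs, and the fit used here ignores any pairing. A fit with the BeadChip as a block was not run, since the column headers do not name it.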
